A study of Arabidopsis thaliana with 4 samples.

Results

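The seed maturation protein (SMP) genes are a small family of late embryogenesis abundant (LEA) genes. They were followed here in whole seeds of Arabidopsis thaliana, cultivar Col 0, comparing ddcc mutants with wild type. The members were given by their locus codes: AT1G03120 (RAB28), AT3G22490, AT3G22500 (ECP31), AT5G27980, AT5G53260 and AT5G53270. All 6 were among the 27416 protein-coding genes of the deposited tables, and 5 passed the filter on low values that left 15780 genes to test. AT5G27980 did not pass it. The reference annotation names 5 of the members as seed maturation proteins, and RAB28 as responsive to abscisic acid.

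Both genotypes were sampled at the post-mature green stage, when the embryo has filled its stores and the seed dries, and each was sequenced from 2 biological replicates. The mutant is named for loss of the DNA methyltransferases DRM1, DRM2, CMT2 and CMT3, which methylate cytosines mainly outside CG sites. The labels list no alleles and no seed age, and both genotypes were grown under the same greenhouse conditions. The comparison asks how transcripts of late seeds differ without these enzymes.

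LEA proteins accumulate late in seed development, when the embryo acquires tolerance of drying. Many of them are very hydrophilic, but this does not hold for every LEA family. The SMP family is one of several unrelated LEA families and is defined by a conserved domain. Its best known members are induced by abscisic acid: ECP31 was first described from embryogenic cells of carrot, and the RAB28 gene from maize embryos. LEA genes as a group are textbook targets of the maturation regulators ABI3, a B3-type transcription factor, and ABI5, a bZIP factor that binds ACGT-containing elements.

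Both called members, ECP31 and AT3G22490, lie next to each other on chromosome 3. The upstream window of AT3G22490 is shown as that of a member whose transcripts fell in ddcc. In TAIR10.1, whose nuclear chromosomes keep the TAIR10 sequence, ECP31 spans 7971625 to 7972907 and AT3G22490 spans 7969681 to 7970843. Both are on the minus strand, have 3 exons, and are separated by 781 bases. The window is the 250 bases before the annotated transcript start of AT3G22490, chr3:7970844-7971093, minus strand, written 5′ to 3′. Capitals mark ACGTG, the core of the abscisic acid response element, on either strand.
AT3G22490: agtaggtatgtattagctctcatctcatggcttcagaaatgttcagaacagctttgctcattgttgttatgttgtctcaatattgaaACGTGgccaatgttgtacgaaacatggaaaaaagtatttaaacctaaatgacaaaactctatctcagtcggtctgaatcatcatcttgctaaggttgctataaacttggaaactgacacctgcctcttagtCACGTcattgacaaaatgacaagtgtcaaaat

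The AT3G22490 window held 2 ACGTG, at 163 to 159 and, on the opposite strand, at 32 to 28 bases before the start. ACGTG was also found in the windows of RAB28, AT5G53260 and AT5G53270, none of which was called, but not in that of AT5G27980. It was found in 23.1% of the 26718 windows of the same length upstream of the genes of the tables. CACGTG, the G-box, which contains ACGTG, was found in the windows of RAB28 and AT5G53270, and in 6.58% of all windows. The AT5G53260 model begins at its start codon, so its window may hold transcribed sequence, and the AT5G53270 window reaches into the neighbouring gene PDV1. The AT5G27980 window lies wholly within AT5G27990, a gene on the other strand. These matches describe letters in a window and were not tested for binding.

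The values are deposited normalised read counts, not divided by gene length. Whole reads inferred from them totalled 1122934 (replicate 1) and 1166635 (replicate 2) for ddcc, against 3416071 and 1292023 for wild type, so that 1 read was worth 1.18, 1.21, 0.531 and 1.32 normalised counts. DRM2, one of the genes named in the mutant, stood at 4.85 and 8.33 in the ddcc libraries, against 39.3 and 39.6 in the wild-type ones. The others were too low to judge. DRM1 had no read, CMT2 had 2 reads in ddcc and 1 in wild type, and CMT3 had 2 and 8 and was not called. A field of the labels calls wild-type replicate 2 ddcc, against its title and genotype, and both wild-type tables are headed as replicate 2 but hold different values, so results are also given without that library. Of the genes tested, 1023 (6.48%) were called, 545 (3.45%) lower and 478 (3.03%) higher in ddcc, at a Benjamini-Hochberg adjusted p under 0.05 in limma. The replicates are labelled biological without naming separate plants. The p-values rest on the spread between these libraries, pooled by limma with that of other genes of similar level. They thus do not measure a gene's own spread alone. Without the trend of spread with level, ECP31 and AT3G22490 were not called (limma adjusted p = 0.134 and 0.17).

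ECP31 was the most abundant SMP transcript and was lower in ddcc. Its normalised read counts were 978 (replicate 1) and 920.4 (replicate 2) for ddcc, against 2193 and 2306 for wild type. Both ddcc libraries lay well below both wild-type libraries, and the replicates of a genotype lay close together. The means were 949 ± 40.9 (SD, n = 2) in ddcc and 2249 ± 80.0 in wild type, 2.37-fold lower in ddcc. The log2 fold change was -1.24 (SE 0.22, 95% interval -1.72 to -0.77, limma adjusted p = 0.00495). It rested on 1590 reads in ddcc and 5876 in wild type. A fall at least as large was fitted for 2.52% of all genes tested. In whole seeds fewer cells of a type and less RNA per cell cannot be told apart.

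AT3G22490, the neighbouring SMP gene, was lower in ddcc too. It stood at 294 and 234 in the ddcc libraries, against 543 and 561 in the wild-type ones. The genotypes did not overlap, and the ddcc pair was more spread than the wild-type pair. The means were 264 ± 42.3 in ddcc and 552 ± 12.6 in wild type (n = 2 each), 2.09-fold lower in ddcc. The log2 fold change was -1.07 (SE 0.22, 95% interval -1.54 to -0.60, limma adjusted p = 0.0103). It rested on 442 reads in ddcc and 1447 in wild type. The last 25 bases of AT3G22490 overlap AT3G22480 on the other strand, and no label states that reads were counted by strand, so reads there are uncertain in origin.

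Both calls of the chromosome 3 pair depended on having both ddcc libraries. Without ddcc replicate 1 limma gave an adjusted p of 0.427 for each, and without ddcc replicate 2 an adjusted p of 0.458 for each, while no gene at all was called in either fit. With 1 ddcc library left out, 2 of the 5 tested members, ECP31 and AT3G22490, had an unadjusted p under 0.05, as had 906 genes lower and 771 higher without ddcc replicate 1, and 840 lower and 791 higher without ddcc replicate 2. ECP31 kept its call without either wild-type library (adjusted p = 0.0259 and 0.0344 without replicates 1 and 2), whereas AT3G22490 did not (0.0523 and 0.0663).

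RAB28, annotated as taking part in ion balance in late embryos and germination, gave lower values in ddcc without passing the test. It stood at 9.57 and 13.2 in the ddcc libraries, against 20.7 and 19.9 in the wild-type ones. The genotypes did not overlap, but the values came from 19 reads in ddcc and 54 in wild type. The log2 fold change was -0.77 (SE 0.39, 95% interval -1.61 to 0.07, limma adjusted p = 0.28). The ratio of reads, corrected for library size, was 0.555, with an exact binomial interval of 0.311 to 0.951 that covers counting error only. RAB28 has 2 exons and lies on the plus strand of chromosome 1 at 752191 to 753140.

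AT5G53270 and AT5G53260, the SMP pair of chromosome 5, did not pass the test in either direction. AT5G53270 stood at 173 and 123 in the ddcc libraries, against 229.8 and 145 in the wild-type ones. AT5G53260 stood at 62.2 and 40.3 in the ddcc libraries, against 64.0 and 32.6 in the wild-type ones. For both genes the genotypes overlapped, and replicate 1 was the higher library in each genotype.

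For AT5G53270 the log2 fold change was -0.32 (SE 0.27, 95% interval -0.89 to 0.25, limma adjusted p = 0.544). For AT5G53260 it was 0.13 (SE 0.34, 95% interval -0.61 to 0.86, limma adjusted p = 0.876). These intervals leave room for a fall of AT5G53270 and for a change of AT5G53260 either way. AT5G53270 had 248 reads in ddcc and 539 in wild type, and their size-corrected ratio was 0.726, with a counting interval of 0.622 to 0.845 that leaves out the spread between libraries. The sign of AT5G53270 turned without wild-type replicate 1 (0.01) and that of AT5G53260 without ddcc replicate 1 (-0.18) or wild-type replicate 2 (-0.34). The genes lie on the minus strand at 21606271 to 21607297 and 21604662 to 21605674, with 2 exons each and 596 bases between them.

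AT5G27980 was barely detected in these seeds. Its reads numbered 0 and 1 in ddcc and likewise 0 and 1 in wild type, so that no difference was detectable at this depth. Its read ratio of 1.58 had an exact interval of 0.0201 to 124. Of its locus, at 10015774 to 10016879 on the minus strand of chromosome 5, 218 bases overlap AT5G27990 on the other strand.

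**Figure D1:**
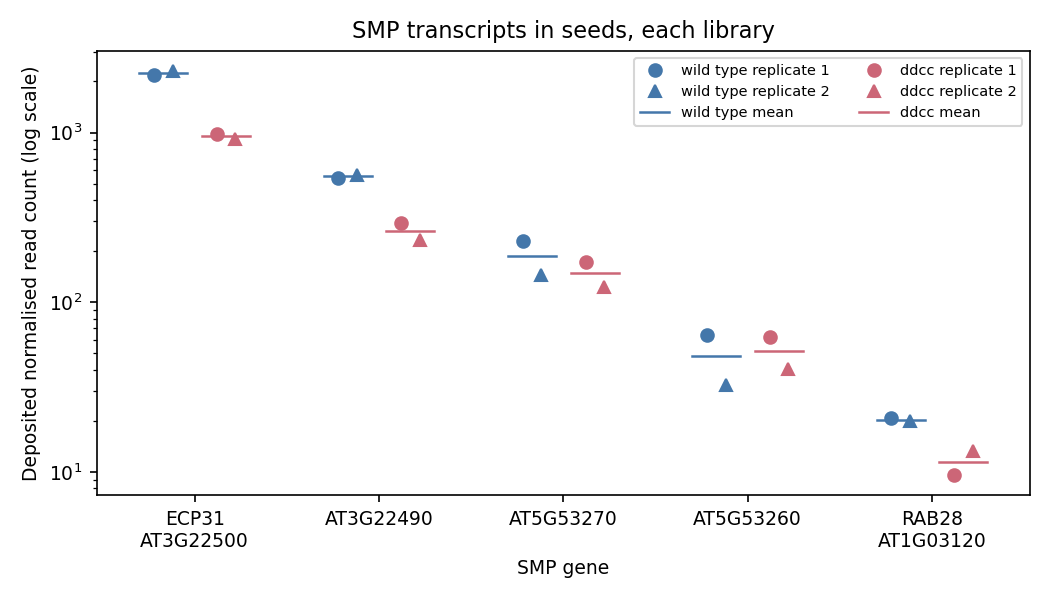
Deposited normalised read counts (log axis, not divided by length) of the 5 tested SMP genes in each library, with circles for replicate 1, triangles for replicate 2 and lines for the mean of each genotype; AT5G27980, with 2 reads in all, is left out. The ddcc libraries lie below both wild-type libraries for ECP31, AT3G22490 and RAB28 and overlap them for AT5G53270 and AT5G53260.

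Of the family, 2 of the 5 tested members were called lower and 0 higher, where 3.45% and 3.03% of all genes tested were. For 3 of the 5 both ddcc libraries lay below both wild-type libraries, as they did for 25.3% of all genes tested, and for 0 of the 5 both lay above, as for 25.7%. The median log2 fold change of the 5 was -0.77, beside 0.02 for all genes tested.

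Summed over the 6 members, SMP transcripts made up 0.114% and 0.0944% of the deposited total in the ddcc libraries, against 0.168% and 0.180% in the wild-type ones. The ddcc libraries were both lower, but 2 samples against 2 cannot give an exact two-sided permutation p below 0.333, which was the value here. ECP31 alone made up 64.5% and 69.1% of the family's sum in the ddcc libraries, against 71.9% and 75.2% in the wild-type ones.

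Per kilobase of annotated transcript the members kept 1 order in all 4 libraries. ECP31 stood at 883 and 831 normalised counts per kilobase in the ddcc libraries, against 1979 and 2081 in the wild-type ones. Its mean ranked 96 of the 15593 tested genes with a known length in ddcc, and 73 in wild type. AT3G22490 followed with 294 and 234 in ddcc against 544 and 562 in wild type, ranks 353 and 211. Next came AT5G53270 with 199 and 141 in ddcc against 264 and 166 in wild type.

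AT5G53260 stood at 117 and 75.9 normalised counts per kilobase in ddcc against 121 and 61.4 in wild type. RAB28 stood at 14.8 and 20.3 in ddcc against 32 and 30.6 in wild type, and AT5G27980 was the lowest. Neighbours in this order did not overlap within either genotype. As a ratio, the closest were AT3G22490, whose lower ddcc library was at 234, and AT5G53270, whose higher one was at 199. The AT5G53260 model holds coding sequence only, but the order of the means was the same per kilobase of coding sequence. By that measure AT3G22490 (372 and 296) and AT5G53270 (361 and 255) overlapped in ddcc.

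The members of each pair resembled each other in sequence. Coding sequences of ECP31 and AT3G22490 were identical at 85.2% of aligned bases without gaps, and those of AT5G53260 and AT5G53270 at 89.0%. All other pairs of members lay between 60.7% and 72.9%. With gaps counted the order turned, at 83.3% for the chromosome 3 pair and 78.6% for the chromosome 5 pair. The others then lay between 36.25% and 51.58%. A genome search for copies (95% identity or more, 100 bases or longer) found none for any member. The longest run of identical transcript bases was 38 in the chromosome 3 pair and 99 in the chromosome 5 pair. How reads with several matching places were treated is not given in the sources used here, so reads of the chromosome 5 pair may be split between its members.

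The value of AT3G22490 over that of ECP31 was 0.300 and 0.254 in the ddcc libraries, against 0.248 and 0.243 in the wild-type ones. That ratio was highest in ddcc replicate 1 and similar in the other libraries. The value of ECP31 over that of AT5G53270 was 5.65 and 7.51 in the ddcc libraries, against 9.54 and 15.9 in the wild-type ones. The mean of this ratio in ddcc was 0.517 of that in wild type. Within the chromosome 5 pair, AT5G53260 over AT5G53270 was 0.359 and 0.329 in ddcc, against 0.279 and 0.225 in wild type. The genotypes did not overlap in any of these ratios, those within a pair included. For each the exact two-sided permutation p was 0.333, the smallest that 2 against 2 can give. A difference between the pairs in their response was thus not shown by a test.

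The loci next to the members were examined in the same fit. Of 16 flanking genes, the nearest 2 on each side of a member or pair, 11 were tested. Of those 1 was called lower and 0 higher, where 3.45% and 3.03% of all genes tested were. The gene called was AT3G22480, annotated as prefoldin 2, a subunit of a chaperone that hands unfolded actin and tubulin on for folding. It stood at 109 and 80.2 in the ddcc libraries, against 269.9 and 221 in the wild-type ones, a log2 difference of -1.37 (SE 0.24; limma adjusted p = 0.00476). It is the gene that overlaps AT3G22490. AT3G22520, on the far side of ECP31, and PDV1 were not called and are named for their position. AT3G22520 stood at 46.1 and 47.2 in ddcc against 41.3 and 33.3 in wild type (log2 fold change 0.32, adjusted p = 0.579).

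AT3G22530, beyond the flanking genes and named after its values were seen, stood at 46.1 and 50.7 in ddcc against 194 and 134 in wild type. Its log2 fold change was -1.70 (limma adjusted p = 0.00194). It lies opposite AT3G22520 and overlaps it, so its reads are uncertain in origin. Beside the chromosome 5 pair, PDV1, a gene of chloroplast division, stood at 36.6 and 36.3 in ddcc against 53.2 and 63.1 in wild type (log2 fold change -0.65, limma adjusted p = 0.197).

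**Figure D2:**
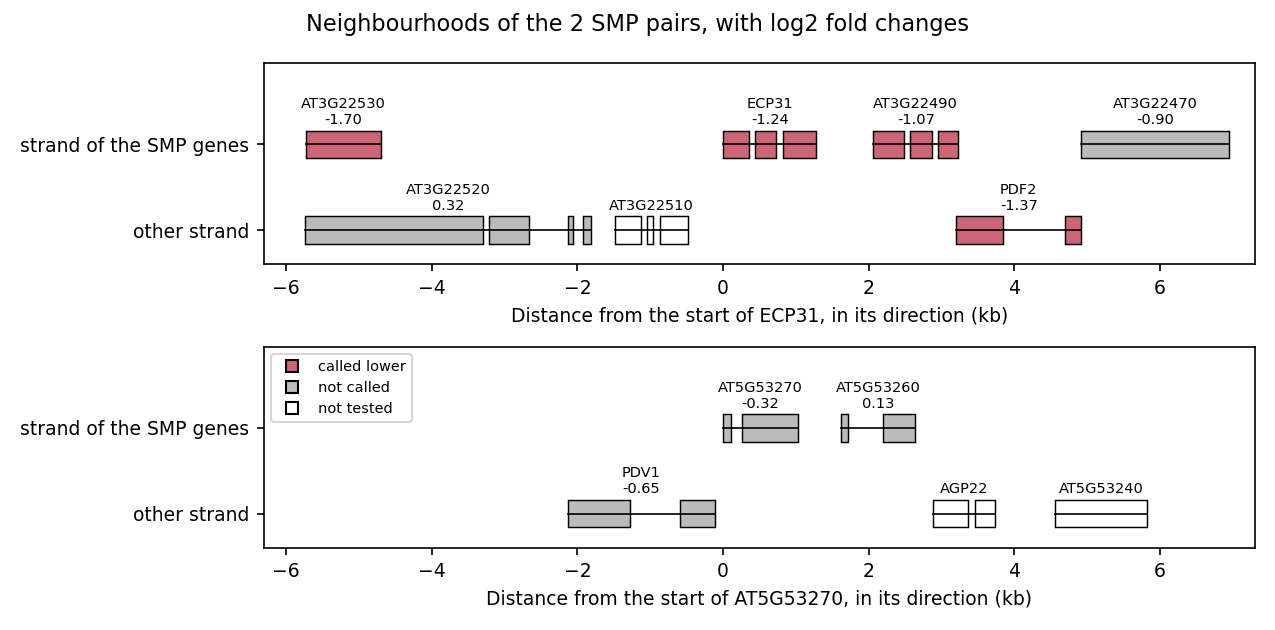
Exons (boxes) of the loci within 5 kb of the start of ECP31 (top) and AT5G53270 (bottom), drawn to scale against distance in kb, by strand, with the log2 fold change under each name. Red marks genes called lower in ddcc, grey genes tested and not called, and white genes below the level tested; ECP31 (-1.24), AT3G22490 (-1.07) and PDF2, the reference symbol of AT3G22480 (-1.37), lie side by side.

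The 45 other LEA genes give the setting for the family. Of these 35 were tested, 7 were called lower and 2 higher, where 3.45% and 3.03% of all genes tested were. Both ddcc libraries lay below both wild-type libraries for 21 of the 35, beside 3 of the 5 SMP genes and 25.3% of all genes. They lay above for 7 of the 35, beside 0 of the 5 and 25.7%. The median log2 fold change was -0.44, beside -0.77 for the 5 SMP genes and 0.02 for all genes tested. The median of the other LEA genes depended on the scaling: quantile normalisation gave -0.05, and setting the nuclear sums equal gave -0.06, which is -0.43 when set against the median of all genes. The SMP median was -0.79 and -0.42 in those fits, the second being -0.79 when set against the same median. By families the calls were 1 lower of 2 in the AtM family (M17 and M10), 1 lower of 2 in the LEA_5 or Em family, 1 lower of 3 in LEA_2, 3 lower of 12 in LEA_4, and 1 lower and 1 higher of 9 dehydrins. In LEA_3 1 of 2 was called higher, and none of 3 LEA_1 or 2 PvLEA18 genes was called. The difference between the SMP family and these families was not tested.

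The most abundant of the other LEA genes called lower was M17 (AT2G41260), at 8725 and 11418 in ddcc against 36902 and 49945 in wild type. GEA6 (AT2G40170), which encodes the EM6 protein, stood at 6989 and 6804 in ddcc against 15772 and 21125 in wild type. LEA7 (AT1G52690) stood at 1443 and 1483 in ddcc against 2770.0 and 2417 in wild type. Their log2 fold changes were -2.10, -1.40 and -0.82 (limma adjusted p = 0.00357, 0.0152 and 0.0479). Those called higher were DI21 (AT4G15910), known from drought-stressed plants, at 208 and 120.4 in ddcc against 56.0 and 78.6 in wild type, and a dehydrin gene. The latter, AT1G54410, stood at 54.2 and 46.1 in ddcc against 23.6 and 12.4 in wild type. Both lay above wild type in both ddcc libraries, with log2 fold changes of 1.24 and 1.46 (limma adjusted p = 0.0204 and 0.0238).

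**Figure D3:**
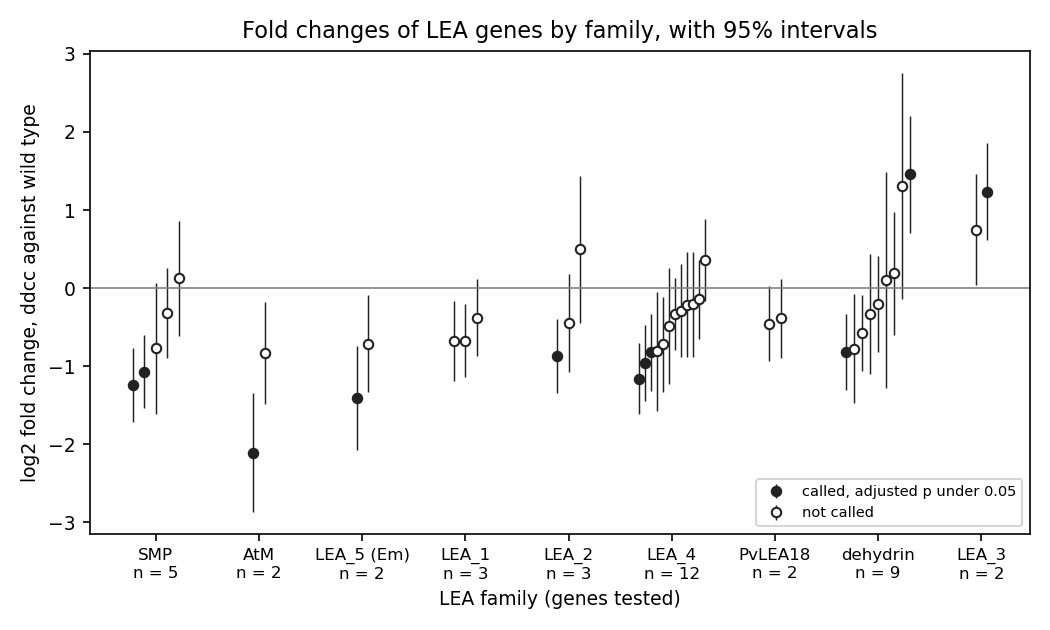
Log2 fold changes of ddcc against wild type with 95% intervals for the tested LEA genes, grouped by family and ordered by value within each; filled points passed an adjusted p of 0.05 in limma. In the SMP column ECP31 (-1.24) and AT3G22490 (-1.07) are filled, while RAB28, AT5G53270 and AT5G53260 have intervals that cross 0.

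Regulators of seed maturation were examined beside the family. Of 15 maturation regulators 12 were tested, 1 was called higher and 0 lower, where 3.03% and 3.45% of all genes tested were. ABI3 stood at 397 and 562 in ddcc against 271 and 255 in wild type (log2 fold change 0.84, limma adjusted p = 0.0422). ABI5 stood at 1094 and 1243 in ddcc against 2015 and 1448 in wild type (log2 fold change -0.55, limma adjusted p = 0.202). Both ddcc libraries thus lay above wild type for ABI3 and below it for ABI5. They lay above for 3 of the 12 regulators and below for 3, beside 25.7% and 25.3% of all genes tested. The call of ABI3 was lost without any 1 of the 4 libraries.

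Genes with tested values most like those of the called members were sought among 1564 other genes with a mean of at least 100 units, a unit being 1.56 normalised counts. Likeness was the Euclidean distance between log2 values centred per gene over the 4 libraries. Nearest to ECP31 were AT1G62420 (0.0214), AT5G65550 (0.0721) and the LEA_4 gene AT4G36600 (0.0994). AT1G62420 stood at 113 and 108 in ddcc against 259 and 268 in wild type. Nearest to AT3G22490 were AT1G33230 (0.0837), AT2G39100 (0.0919) and AT5G65207 (0.10). ECP31 and AT3G22490 were 0.243 apart, with 24 of those genes nearer to ECP31. With 4 libraries in 2 groups, such distances follow the fold change and the spread of each pair.

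Whole seeds hold embryo, endosperm and seed coat. None of 4 embryo storage genes (CRA1, CRU3, OLEO1 and SESA1) was called. Their normalised counts summed to 53287 and 58859 in ddcc against 78484 and 64861 in wild type, so that both ddcc libraries were lower, as were the SMP sums. All 4 log2 fold changes were below 0, from -0.69 for OLEO1 to -0.05 for CRA1. For 3 of the 4 both ddcc libraries lay below both wild-type libraries, as they did for 25.3% of all genes tested. As a share of the total the genotypes overlapped, at 4.02% and 4.17% in ddcc against 4.32% and 3.80% in wild type. The endosperm gene EPR1 (AT2G27380) stood at 23673 and 32212 in ddcc against 13960.1 and 15731 in wild type (log2 fold change 0.90, limma adjusted p = 0.15), while 4 of the 6 endosperm genes (ZOU, PHE1, MINI3 and IKU2) had no read. The remaining one, AGL62, stood at 7.06 and 6.10 in ddcc against 13.5 and 4.49 in wild type (log2 fold change -0.23). The 7 seed coat genes summed to 129 and 114 in ddcc against 124 and 45 in wild type, with BAN at 0. Of these 4 were tested and none was called. TT10 stood at 82.4 and 65.6 in ddcc against 61.4 and 6.78 in wild type (log2 fold change 1.71). Of the 4 tested, 1, TT12, had a log2 fold change below 0 (-0.31). The 5 silique wall genes summed to 14.0 and 9.83 in ddcc against 16.8 and 8.29 in wild type, with FUL, SHP2 and IND at 0. The part of seed composition in the SMP values was not tested.

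Scaling moved the size of the SMP changes. When each library was set to the same sum over nuclear genes, the median of all genes moved from 0.02 to 0.37 on the log2 scale, and 87.5% of calls were higher in ddcc, against 46.7% as deposited and 58.1% after quantile normalisation. ECP31 then stood at -0.85, or -1.22 relative to all genes, and remained called (limma adjusted p = 0.0175), where 1.30% of all genes were called lower. AT3G22490 stood at -0.68, or -1.05 relative to all genes, and was not called (0.0619). AT5G53270 turned to 0.07, which is -0.30 relative to all genes. After quantile normalisation ECP31 and AT3G22490 both stood at -0.79 and both were called (0.0357 and 0.0433).

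**Figure D4:**
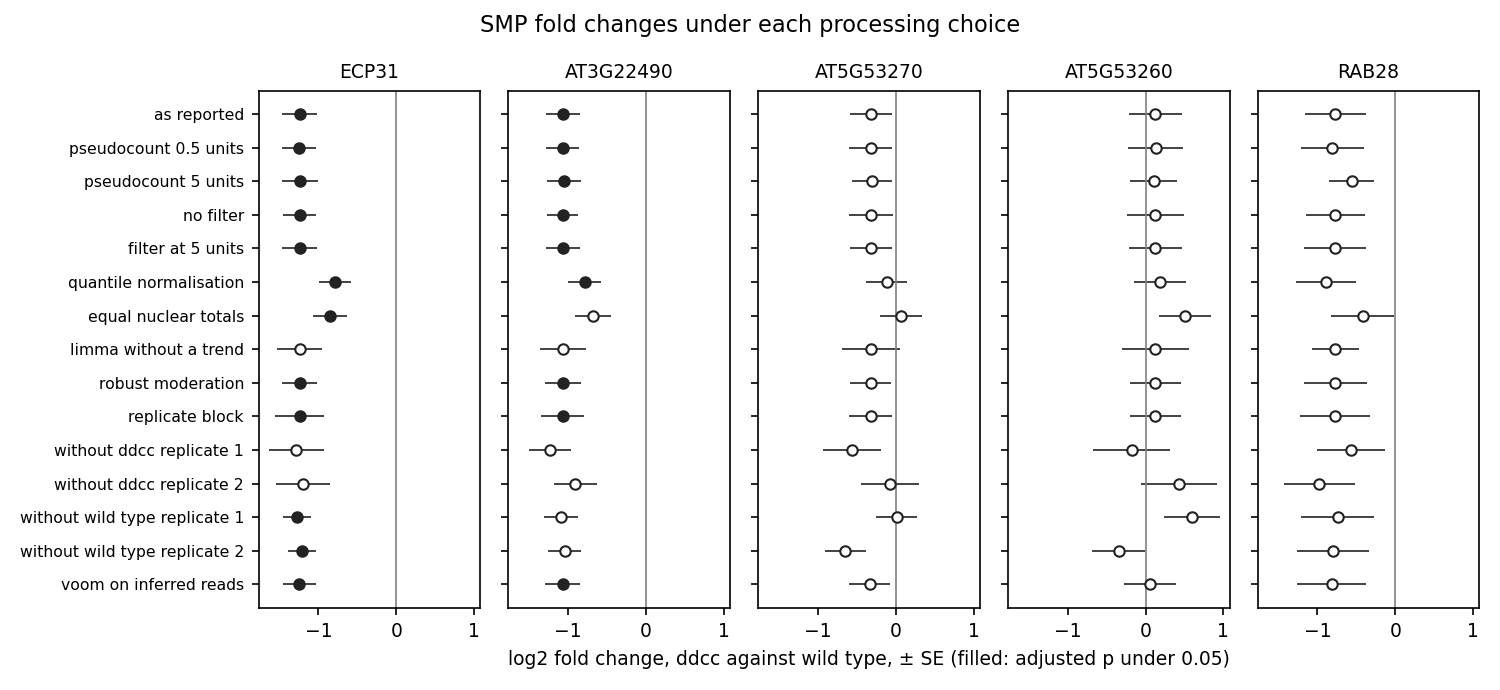
Log2 fold change of each tested SMP gene with its SE under the fit as reported and 14 alternatives, filled where the adjusted p was under 0.05 in limma. ECP31 and AT3G22490 are below 0 under every setting shown and are unfilled without either ddcc library and in limma without a trend. AT3G22490 is also unfilled without either wild-type library and with equal nuclear totals, while AT5G53270 and AT5G53260 lie on both sides of 0.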

How the data were processed

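RNA-seq of whole seeds gave 1 table for each of 4 libraries, 2 per genotype. Per the labels' protocols, total RNA was amplified with a NuGEN Ovation kit before library preparation. Bowtie 0.12.7, edgeR 3.10.5 and build TAIR10 were used, per the submitters' processing notes. How reads were placed and counted is not stated there. Each deposited table holds 1 signal per gene, the authors' normalised read count, which is neither whole nor divided by length.

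Inverting the equalisation of library sizes within each genotype gave whole reads, within 0.01, for 99.98% of ddcc and 99.95% of wild-type value pairs with reads, at a fitted dispersion of 0.0327. These reads served for depths, ratios with exact 95% intervals, which cover counting error only, and a voom fit.

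Log2(value + 1 unit), a unit being 1.56 (mean column total divided by 1e6), was fitted with limma 3.58.1 in R 4.3.3 with a variance trend, for genes averaging 1 unit or more. The pseudocount understates changes of low genes. Adjusted p-values are Benjamini-Hochberg over all genes tested. The annotation was RefSeq TAIR10.1, with rows for 26719 of 27416 loci; copies were searched with BLAST+ 2.17.0. Flanking genes, the 3 most abundant called LEA genes in each direction, ABI3, ABI5 and the 3 nearest patterns were named by rule. Members and lists were chosen with earlier results of these data known. The upstream window of 1 member is not reported here.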

Additional observations from a re-analysis of the deposited data

How the results depend on the processing

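The SMP members were refitted under 14 alternatives. ECP31 stayed between -1.29 and -0.79 and AT3G22490 between -1.23 and -0.68. Calls were lost in limma without a trend for ECP31 (-1.24) and AT3G22490 (-1.07), leaving 0 members called, and with equal nuclear totals for AT3G22490 (-0.68), leaving 1; AT5G53270 turned to 0.069 there. Leaving out 1 library gave -1.29 to -1.20 for ECP31, -1.23 to -0.91 for AT3G22490, -0.97 to -0.57 for RAB28, -0.65 to 0.0095 for AT5G53270 and -0.34 to 0.60 for AT5G53260, with 0 to 1 members called. The single library left in a genotype is taken to vary as the others do.

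All calls numbered 1023 as reported, 336 without a filter, 1640 with equal nuclear totals, 33 without a trend and 0 to 417 with 1 library left out. Other LEA genes called lower were 1 without a filter, 2 after quantile normalisation, 3 with equal nuclear totals, 0 without a trend, 11 with voom and 0 to 5 with 1 library left out; called higher, 0 without a filter or trend and 0 to 1 with 1 left out. Regulators called higher were 0 without a filter or trend, 2 with equal nuclear totals and 0 with 1 left out, where called lower were 0 to 1. Flanking genes called lower were 0 without a trend and 0 to 1 with 1 left out; called higher, 1 with equal nuclear totals and 1 with the replicate block. Of all 15780 genes tested, 1435 were called higher and 205 lower with equal nuclear totals, and 32 higher and 1 lower without a trend. The replicate block gave 670 higher and 711 lower. The cause of these shifts was not tested.

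With the replicate block, fold changes are fixed by the design; ECP31 (-1.24) and AT3G22490 (-1.07) stayed called (limma adjusted p = 0.00212 and 0.00295) among 1381 calls. Same-numbered libraries did not deviate together (correlation -0.0455 over 15780 genes), so numbers were not taken as pairs. Family shares moved by less than 1 SD with the nuclear total (0.109% in ddcc, 0.177% in wild type) as denominator. Leaving out 1 of 2 libraries, added after seeing the data, gives the other's own share and so shows no stability. Depth limits RAB28 and AT5G27980.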
